A study of Mus musculus with 8 samples.

Results

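The 9 genes described here encode the ligand, the receptors and the best known transcriptional read-outs of GDNF-RET signalling: Gdnf, Ret, Gfra1, Etv4, Etv5, Spry1, Spry2, Spry4 and Dusp6. They were taken by symbol from the transcript tables, in which all 9 were found among 24063 genes, and the counts of a gene's transcripts were added. The series compared mouse kidney tubuloids, 3D epithelial structures grown in Matrigel from tubule fragments of kidneys that the labels place at postnatal day 7 to 10 and the study's methods at a younger range. All 8 cultures carried the genotype Pkd2 fl/fl Pax8rtTA TetOCre mTmG, in which doxycycline (DOX) switches on Cre recombinase in Pax8-expressing epithelial cells, Cre removes the floxed part of the polycystic kidney disease gene Pkd2, and mTmG reports the recombination. All were plated with growth factors, which by the study's methods included a pulse of GDNF and also HGF, EGF and bFGF. From culture day 3 they received either DOX (4 libraries, numbered 9, 12, 19 and 21) or the solvent DMSO (4 libraries, numbered 3, 5, 15 and 20) for 3 days, and RNA was collected on culture day 7. DMSO cultures therefore carried the same alleles as DOX cultures, recombination was not complete by the study's own account, and cells that lack Pax8 do not recombine.

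GDNF is made by mesenchyme next to the ureteric bud and binds GFRα1, a lipid-anchored co-receptor, which brings together molecules of the tyrosine kinase RET on the cells of the ureteric tip. RET then signals through adaptor proteins to Ras and the ERK kinases, and the ETS transcription factors ETV4 and ETV5 rise in the tip and drive branching. The Sprouty proteins (Spry1, Spry2, Spry4) and DUSP6, a phosphatase of ERK, are induced by the same cascade and damp it. Other receptor tyrosine kinases, including those for FGF, EGF and HGF, induce these ETS and feedback genes too.

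Starts of transcription were available from RefSeq (GRCm38.p6) for 6 of the 9 genes, as 8 windows that reach from 250 bases before to 50 bases after an annotated start. ETS factors bind a GGAA core, so a pair of motifs that hold it were searched for on both strands, AGGAAG and the related CCGGAA. They share the core but differ in the base before it, so a single core cannot count for both. At least 1 of the motifs stood in 5 of the 8 windows, beside 45.2% of 32851 promoter windows of mouse genes. AGGAAG was in 35.4% of all windows and CCGGAA in 14.9%. The 4 windows below are shown because they belong to the co-receptor, to an ETS factor and to the pair of feedback genes with the highest levels. Each runs 5′ to 3′ on the strand of its gene, with the searched motif, or its reverse complement, in capitals.

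Dusp6, plus strand, chr10:99262981-99263280: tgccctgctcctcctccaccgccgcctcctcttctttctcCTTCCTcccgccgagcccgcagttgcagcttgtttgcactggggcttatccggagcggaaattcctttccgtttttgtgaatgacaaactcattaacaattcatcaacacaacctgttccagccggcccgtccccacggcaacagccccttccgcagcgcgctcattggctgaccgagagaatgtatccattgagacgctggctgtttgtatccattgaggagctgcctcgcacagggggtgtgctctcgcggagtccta
Etv5, minus strand, chr16:22438319-22438618: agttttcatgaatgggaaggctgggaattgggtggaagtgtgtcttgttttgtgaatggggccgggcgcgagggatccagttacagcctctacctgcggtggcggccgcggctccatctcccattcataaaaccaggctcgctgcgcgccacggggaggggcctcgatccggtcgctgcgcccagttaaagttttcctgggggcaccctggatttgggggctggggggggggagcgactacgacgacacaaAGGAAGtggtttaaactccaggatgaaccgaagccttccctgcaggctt
Gfra1, minus strand, chr19:58455349-58455648: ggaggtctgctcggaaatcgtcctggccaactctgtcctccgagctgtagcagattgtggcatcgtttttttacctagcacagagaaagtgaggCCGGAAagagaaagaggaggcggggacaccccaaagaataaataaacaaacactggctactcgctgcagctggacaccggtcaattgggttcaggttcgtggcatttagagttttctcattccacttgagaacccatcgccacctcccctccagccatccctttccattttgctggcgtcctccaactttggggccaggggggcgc
Spry1, plus strand, chr3:37639697-37639996: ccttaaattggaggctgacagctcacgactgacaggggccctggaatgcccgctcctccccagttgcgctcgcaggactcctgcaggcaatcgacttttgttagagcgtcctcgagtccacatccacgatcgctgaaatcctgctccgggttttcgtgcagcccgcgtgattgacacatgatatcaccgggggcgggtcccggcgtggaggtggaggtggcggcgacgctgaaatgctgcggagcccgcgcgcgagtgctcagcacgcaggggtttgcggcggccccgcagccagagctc

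The Dusp6 window held the reverse complement of the first motif far upstream of the start, the printed Etv5 window held AGGAAG close to it, and the Gfra1 window held CCGGAA. Etv5 has a second annotated start, whose window (chr16:22439521-22439820) held neither motif, and the printed window was chosen because it held one. Neither motif stood in the Spry1 window, which says only that these letters are not in it. No binding was measured in this series.

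The libraries differed in ways that bear on the results. Counts added over all transcripts totalled 63922677 to 102716313 per library, and 39252852 to 64561676 when 1 transcript was kept per gene. DMSO 20 had a count for 13243 genes and DOX 19 for 13599, against 17054 to 17903 in the other 6, so most results that rest on those libraries are given with and without them. Y-linked genes were counted in DMSO 15 and DOX 21 and were close to 0 elsewhere, 1 library in each group. Pkd2 was at 6128, 4813, 6039 and 7538 normalised counts in DMSO 3, 5, 15 and 20, and at 4136, 5072, 5952 and 4624 in DOX 9, 12, 19 and 21. Its groups overlapped (log2 fold change -0.31 ± 0.215 SE, adjusted p = 0.999 by DESeq2), and since its count covers the whole transcript and not the floxed part alone, it does not measure recombination. Normalised counts are counts divided by the size factor of the library, and are compared between libraries for 1 gene only. Levels of different genes are compared in TPM, a share of the library's transcripts that allows for their length, which was recomputed with 1 transcript kept per gene.

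The pathway was expressed at very unequal levels from gene to gene. Mean TPM over the 8 libraries was 348 ± 119 (SD) for Spry1 and 316 ± 90.8 for Dusp6, then 73.2 ± 34.7 for Gfra1, 62.1 ± 18.9 for Spry4, 58.8 ± 19.9 for Etv5 and 31.4 ± 8.07 for Etv4. Spry2 followed at 10.3 ± 4.13, the receptor Ret at 3.87 ± 3.82 and the ligand Gdnf at 0.569 ± 0.481. The order of Spry1 and Dusp6 was not settled, since Spry1 was the higher in 4 of 8 libraries, and the same held for Spry4 and Etv5. Gfra1 exceeded Spry4 in 6 of 8 libraries. Dusp6 exceeded Gfra1, Etv5 exceeded Etv4, Etv4 exceeded Spry2, Spry2 exceeded Ret and Ret exceeded Gdnf in 8 of 8. Ranked among all genes with a TPM above 0, Spry1 stood at percentile 97.4, Ret at 40.2 and Gdnf at 24.6. When the TPM of all transcripts were added instead, Gfra1, with 3 transcripts that share most of their reads, stood at 145 TPM, Gdnf, with 4, stood at 1.53 TPM, and Spry2 was above Ret in 5 of 8 libraries.

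The ETS factors and the feedback genes other than Spry2 varied least from library to library, and the receptor and ligand most. The coefficient of variation of the normalised counts was 21.0% for Etv4, 25.6% for Spry4, 27.1% for Etv5, 27.2% for Dusp6 and 28.9% for Spry1. It was 39.9% for Spry2 and 42.0% for Gfra1. It was 93.0% for Ret and 84.6% for Gdnf, with a 20.8-fold range for Ret. In these bulk libraries fewer cells of a type and less RNA per cell cannot be told apart.

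**Figure D1:**
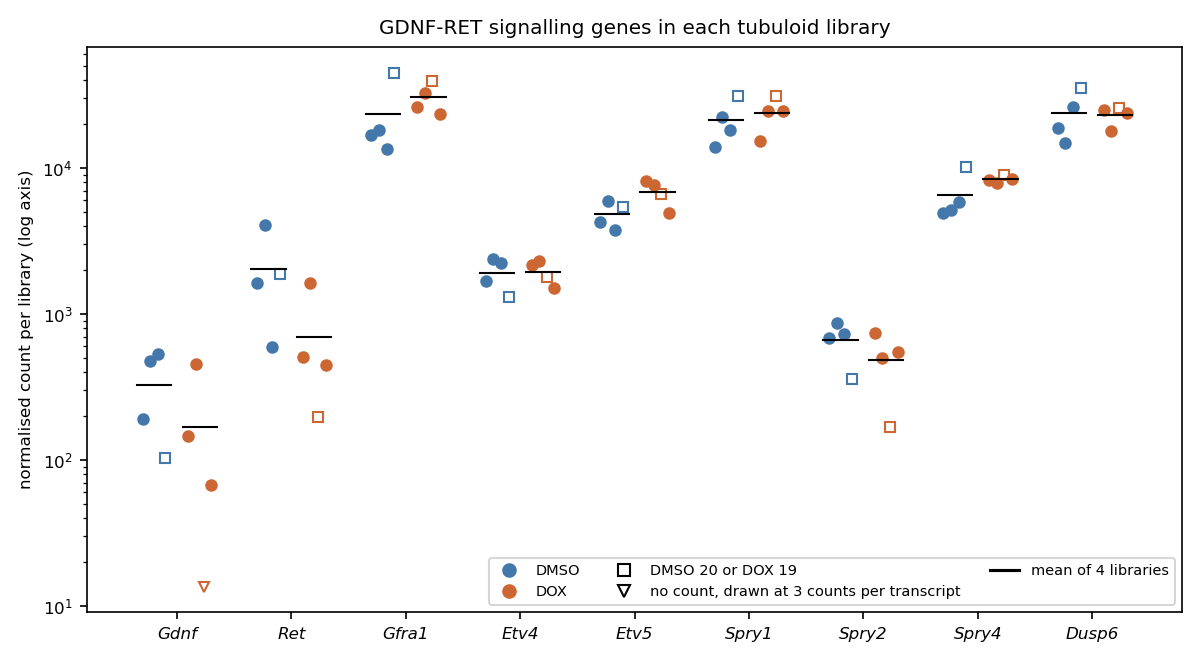
Normalised counts of the 9 genes (log axis) in the 4 DMSO and 4 DOX libraries, with the group mean as a line. Open squares are DMSO 20 and DOX 19, and the open triangle marks Gdnf in DOX 19, which had no count and is drawn at the value of 3 counts per transcript. The groups of every gene overlap, Ret spreads most among the genes with a count in every library, and DMSO 20 is the highest DMSO library for Gfra1, Spry1, Spry4 and Dusp6.

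Across the 9 genes, DOX made no difference that passed the test. A gene was called when its adjusted p did not exceed 0.05 and it differed by 1.5-fold or more. By this rule DESeq2 called 0 of 9, with adjusted p between 0.885 and 0.999, against 0.147% of all 17011 genes tested. edgeR's quasi-likelihood test also called 0 of 9, and 0% of 15562 genes. At an unadjusted p under 0.05 DESeq2 had 1 of 9, Ret, against 4.67% of 19268 genes, and edgeR had 1 of 9, Etv5, against 3.06%. The groups overlapped for all 9, whereas groups did not overlap for 2.71% of the 17633 genes with 2 or more counts on average. The median log2 fold change of the 9 was 0.03, beside -0.07 over all genes tested. Nothing in the labels says that the libraries of a group came from separate animals, so these p-values measure the spread between these libraries only.

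Gdnf lies on chromosome 15 (7810048 to 7837580, plus strand, GRCm38.p6). The ligand's own transcript was scarce in every library, with 189.8, 476, 532 and 104 normalised counts in DMSO 3, 5, 15 and 20, and 146, 454, 0 and 67.2 in DOX 9, 12, 19 and 21. These values overstate the reads, because the 4 Gdnf transcripts share them. The fullest single transcript had 169 counts at most. DOX 19 had no count, which allows up to 13.5 on this summed scale (3 counts in each of the 4 transcripts, counting error only), and DMSO 5, DMSO 15 and DOX 12 were the highest. The log2 fold change was -0.96 ± 1.29 (SE, n = 4 and 4, adjusted p = 0.999 by DESeq2), with a 95% interval from -3.50 to 1.57. Without DMSO 20 and DOX 19 it was -0.84 ± 0.734, by limma-voom -2.59, and without single libraries -2.19 (without DOX 12) to -0.55 (without DOX 19). The GDNF given in the medium is a protein and is not counted here.

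Ret, the receptor tyrosine kinase, lies on chromosome 6 (118151748 to 118197744, minus strand). Its normalised counts were 1624, 4089.6, 593 and 1875 in DMSO 3, 5, 15 and 20. In DOX 9, 12, 19 and 21 they were 503, 1636, 196 and 449. DOX 12 stood among the DMSO libraries and DMSO 15 near the other DOX libraries, so the groups overlapped although 3 of 4 DOX libraries were below every DMSO library. The log2 fold change was -1.55 ± 0.748 (SE), a fold of 0.341, with adjusted p = 0.885 by DESeq2 and adjusted p = 0.999 by edgeR. An exact 2-sided permutation test of the difference in mean normalised count, without a log, gave p = 0.0857. The smallest p this design allows is 0.02857. Without DMSO 20 and DOX 19 the log2 fold change was -1.26 ± 0.737 (adjusted p = 0.842), and leaving out single libraries moved it between -2.42 (without DOX 12) and -0.97 (without DMSO 5).

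The epithelial and stromal content of the libraries differed as well, and its part in the Ret levels was examined only as a correlation. The summed TPM of 6 renal epithelial markers (Cdh1, Epcam, Cdh16, Pax8, Cldn7, Krt19) was 533 to 2844 in the DMSO libraries and 778 to 1706 in the DOX libraries. It was lowest in DMSO 15, the DMSO library with least Ret, but in DOX the order was not the same, since DOX 9 had the highest sum (1706) with Ret at 503 and DOX 12 a sum of 1120.05 with Ret at 1636. That of 10 stromal markers was 385 to 5504 in DMSO libraries, highest in DMSO 15, against 888 to 1430.0 in DOX libraries. Over the 8 libraries the correlation of Ret with the epithelial sum was r = 0.592 (permutation p = 0.123) and Spearman's rho = 0.524 (permutation p = 0.197). It was r = 0.639 (permutation p = 0.179) without the 2 libraries farthest from the median, and r = 0.668 (permutation p = 0.154) without DMSO 20 and DOX 19. With the stromal sum it was r = -0.315 (permutation p = 0.461) and rho = -0.0714 (permutation p = 0.882), and turned to r = 0.825 (permutation p = 0.0417) without the 2 libraries farthest from the median, so its direction rests on those. Without DMSO 20 and DOX 19 it was r = -0.613 (permutation p = 0.193). Among 18 such relations of the 9 genes with the 2 sums over the 8 libraries none passed adjustment. The lowest adjusted permutation p was 0.815 for r and 0.701 for rho.

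Gfra1, the co-receptor, lies on chromosome 19 (58235581 to 58455946, minus strand). Its normalised counts were 16730.4, 18113, 13521 and 44944 in DMSO 3, 5, 15 and 20, and 26154, 32418.5, 39670.5 and 23421 in DOX 9, 12, 19 and 21. DMSO 20 held the highest value of all 8, while the other 3 DMSO libraries were below every DOX library. With all libraries the log2 fold change was 0.38 ± 0.437 (SE, adjusted p = 0.999 by DESeq2). Without DMSO 20 it was 0.91 ± 0.261 (adjusted p = 0.0860 by DESeq2, adjusted p = 0.953 by edgeR). Without DMSO 20 and DOX 19 it was 0.78 ± 0.235 (adjusted p = 0.138 by DESeq2 and 0.911 by edgeR). Leaving out any other single library gave between 0.20 (without DMSO 15) and 0.49 (without DOX 21). The groups did not overlap in either of these sets of libraries, as held for 6.76% of genes without DMSO 20 and 10.2% without both. The exons of Gfra1 overlap an opposite-strand gene, Gm16277, over 416 bases, and no source states whether counting used strand, so reads of that stretch cannot be told apart.

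The co-receptor outnumbered the receptor in every library. Gfra1 TPM divided by Ret TPM, a ratio chosen after the values were seen, was 10.02, 4.29, 22.003 and 24.7 in DMSO 3, 5, 15 and 20, and 50.6, 19.3, 208 and 49.4 in DOX 9, 12, 19 and 21. DOX 12 fell among the DMSO libraries and the other 3 DOX libraries lay above them. The geometric mean was 12.4 in DMSO and 56.3 in DOX, and the exact permutation test of the log2 ratios gave p = 0.0857. The DOX mean includes DOX 19 at 208, and neither mean was recomputed without DMSO 20 and DOX 19.

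**Figure D2:**
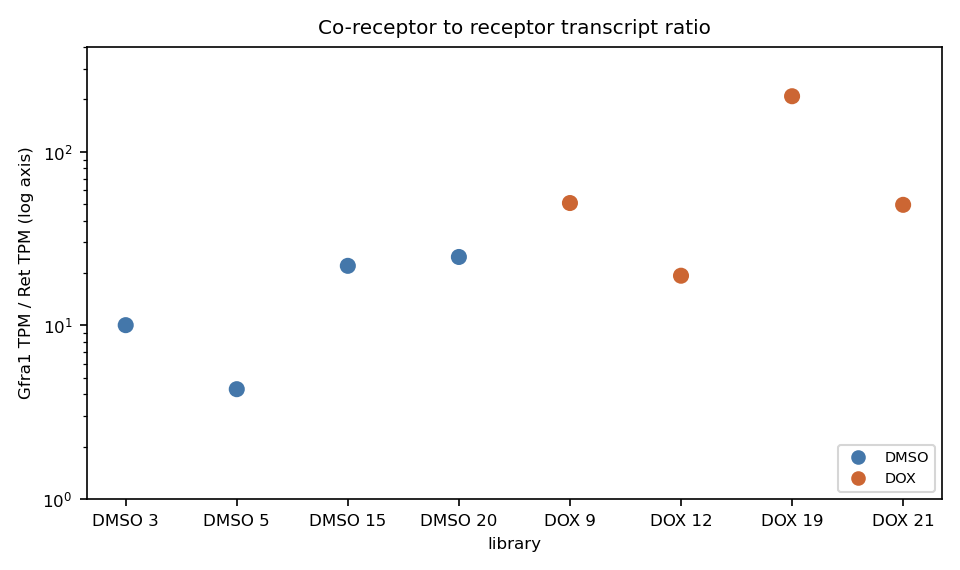
Ratio of Gfra1 TPM to Ret TPM (log axis) in each of the 4 DMSO and 4 DOX libraries, 1 point per library. The ratio runs from 4.29 in DMSO 5 to 208 in DOX 19, and DOX 12 at 19.3 lies among the DMSO libraries.

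Etv4 and Etv5 encode ETS factors that act downstream of RET in the tip. Etv4 lies on chromosome 11 (101769747 to 101785310, minus strand) and Etv5 on chromosome 16 (22381313 to 22439570, minus strand). Etv4 had 1688, 2388, 2242 and 1306 normalised counts in DMSO 3, 5, 15 and 20, and 2175, 2299.7, 1797 and 1516 in DOX 9, 12, 19 and 21. The range of DOX lay inside that of DMSO, with DMSO 20 lowest. Its log2 fold change was 0.03 ± 0.279 (SE, adjusted p = 0.999 by DESeq2), with a 95% interval from -0.52 to 0.58, and turned to -0.12 without DMSO 20.

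Etv5 had 4279, 5899.5, 3739 and 5374 normalised counts in DMSO 3, 5, 15 and 20, and 8190.4, 7675, 6587 and 4893 in DOX 9, 12, 19 and 21. DOX 9, 12 and 19 were above every DMSO library and DOX 21 was not. Its log2 fold change was 0.50 ± 0.257 (SE), a fold of 1.42, with adjusted p = 0.945 by DESeq2, adjusted p = 0.999 by edgeR and an exact permutation p = 0.0857. It stayed between 0.40 and 0.64 under all 19 alternatives tried, with no adjusted p below 0.439. Etv5 TPM was 1.02 to 2.51 times Etv4 TPM, at 1.55, 1.51, 1.02 and 2.51 in DMSO 3, 5, 15 and 20 and at 2.30, 2.04, 2.24 and 1.97 in DOX 9, 12, 19 and 21. The exact permutation test of this ratio between the groups gave p = 0.143.

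The 3 Sprouty genes encode inhibitors that act on receptor tyrosine kinase signalling to Ras, and Spry1 is the one known to restrain RET in the ureteric bud. Spry1 lies on chromosome 3 (37639947 to 37644599, plus strand), Spry2 on chromosome 14 (105891947 to 105896819, minus strand) and Spry4 on chromosome 18 (38586247 to 38601347, minus strand). By TPM Spry1 made up 73.9% to 85.9% of the 3 genes together in every library. Its normalised counts were 13839, 22175, 18134.5 and 31025 in DMSO 3, 5, 15 and 20, and 15293, 24447.5, 30909.7 and 24416 in DOX 9, 12, 19 and 21. DMSO 20 and DOX 19 were the highest of their groups and the ranges nearly coincided. The log2 fold change was 0.16 ± 0.342 (SE, adjusted p = 0.999 by DESeq2), with a 95% interval from -0.51 to 0.83, and ran from 0.0005 (without DMSO 3) to 0.39 (without DMSO 20) when single libraries were left out. The exons of Spry1 overlap the opposite-strand gene Gm42922 over 710 bases, with the same limit on strand as for Gfra1.

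Spry2 was the scarcest of these 3, while Spry3, which is not among the 9 genes, had a mean of 1.38 TPM. Spry2 had 681, 871, 724 and 361 normalised counts in DMSO 3, 5, 15 and 20, and 737, 495, 168 and 548 in DOX 9, 12, 19 and 21. DMSO 20 and DOX 19 were the lowest of their groups, where they were the highest for Spry1. Its log2 fold change was -0.44 ± 0.507 (SE, adjusted p = 0.999 by DESeq2), and -0.33 ± 0.287 without those libraries. Leaving out single libraries moved it between -0.71 (without DOX 9) and -0.14 (without DOX 19).

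Spry4 was the only member called under any of the 19 alternatives. Its normalised counts were 4914, 5159, 5821 and 10118 in DMSO 3, 5, 15 and 20, and 8319, 7949, 8951 and 8372.5 in DOX 9, 12, 19 and 21. The 4 DOX libraries were close together, DMSO 3, 5 and 15 were all below them, and DMSO 20 was above them all. With all 8 libraries the log2 fold change was 0.37 ± 0.285 (SE, adjusted p = 0.999 by DESeq2). Without DMSO 20 it was 0.66 ± 0.141 (adjusted p = 0.00392 by DESeq2). This was a call, the 1 of 9, against 0.314% of 15302 genes tested. edgeR on the same 7 libraries gave adjusted p = 0.953 and called 0% of 16073 genes. Without both DMSO 20 and DOX 19 the log2 fold change was 0.65 ± 0.193 (adjusted p = 0.129 by DESeq2), where DESeq2 called 0 of 9, against 0.296% of all genes.

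Dusp6, the ERK phosphatase, lies on chromosome 10 (99263231 to 99267489, plus strand). Its normalised counts were 18802, 14811, 25966 and 35298 in DMSO 3, 5, 15 and 20, and 24765.5, 17810.1, 25942 and 23854 in DOX 9, 12, 19 and 21. Every DOX value lay within the range of DMSO. The log2 fold change was -0.04 ± 0.322 (SE, adjusted p = 0.999 by DESeq2), with a 95% interval from -0.67 to 0.59, and it turned to 0.21 without DMSO 20 and to 0.02 by limma-voom.

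**Figure D3:**
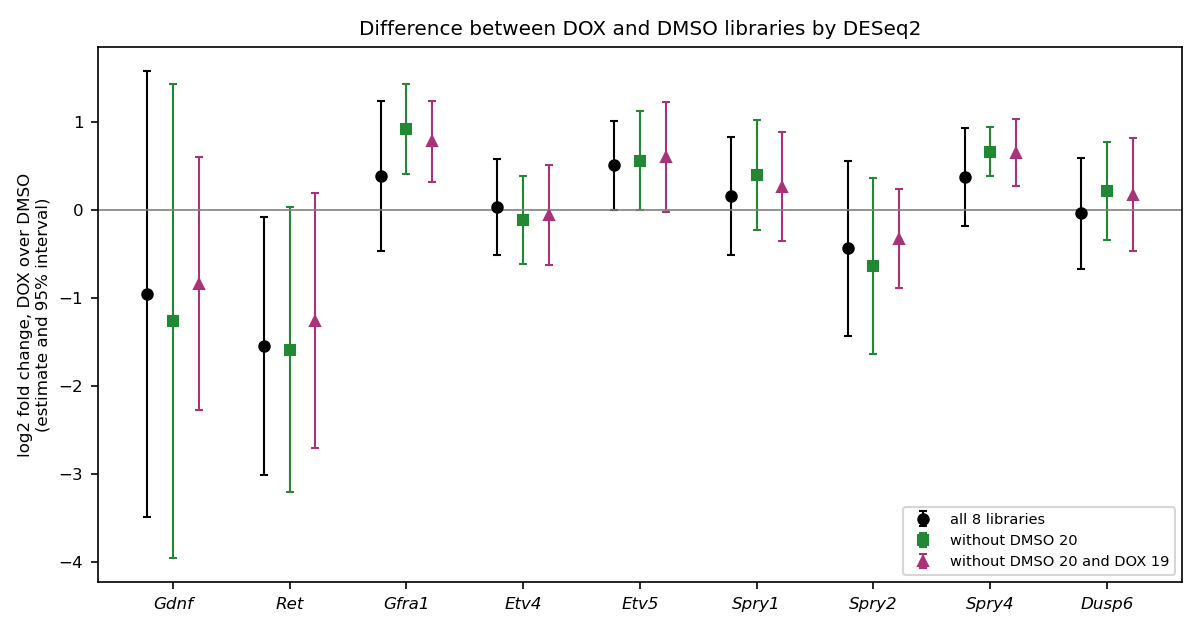
Log2 fold change of DOX over DMSO for the 9 genes by DESeq2, with 95% intervals, from all 8 libraries, without DMSO 20, and without DMSO 20 and DOX 19. Gfra1 moves from 0.38 to 0.91 and Spry4 from 0.37 to 0.66 when DMSO 20 is left out, while Etv5 stays between 0.50 and 0.60.

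The 9 genes did not vary as a single block across libraries. Of their 36 pairs, 16 had a positive and 20 a negative Pearson's r over the 8 libraries, 6 passed an unadjusted permutation p of 0.05 and 0 passed after adjustment. Gfra1 and Spry4 were the pair with the lowest p, with r = 0.879 (permutation p = 0.00692, adjusted 0.219) and rho = 0.833 (permutation p = 0.0154, adjusted 0.265). Without the 2 libraries farthest from the median of Gfra1 it was r = 0.865 (permutation p = 0.0403), and without DMSO 20 and DOX 19 r = 0.793 (permutation p = 0.0931). Gdnf and Spry2 had r = 0.886 (permutation p = 0.0183) and rho = 0.667 (permutation p = 0.0831), which fell to r = 0.418 (permutation p = 0.414) without the 2 libraries farthest from the median of Gdnf and so rests on those. The 8 points come from both groups and from libraries of unequal depth.

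The label of ureteric tip was checked against 8 tip markers. Wnt11, the ligand induced by RET in the tip, was at 5.71 to 24.6 TPM and was found in all 8 libraries. Ret, Gfra1 and Etv5 are on the marker list too, but as members they are no check of the label. Sox8, Adamts18 and Lhx1 were at 0 in DMSO 20, and Sox8 also in DOX 19. Trunk and collecting duct markers were present as well, but not all of the 9 listed in every library. Wnt7b, Gata3, Hoxb7, Krt8 and Krt18 were at 11.5 TPM or more in all 8. Wnt9b was at 0 in DMSO 20 and DOX 19 (median 1.53 TPM), Calb1 ran from 0.0180 TPM in DMSO 20 to 103 TPM in DMSO 5, and the water channel Aqp2 was at 0 in 7 of 8 libraries. Among nephron progenitor markers Six2 was at 0.255 to 11.4 TPM, Eya1 at 1.41 to 17.1 TPM and Tmem100 at 37.3 to 119 TPM. Cited1, Meox1, Osr1 and Crym were at 0 in DMSO 20 and DOX 19, and Crym also in DMSO 15. Sox10, which marks the enteric neural lineage that also uses RET, reached at most 0.0352 TPM, and the 8 neural and glial markers together came to 6.38 to 39.1 TPM. Of the 6 endothelial markers Pecam1, Cdh5, Kdr and Tek stayed under 1 TPM, while Emcn was at 16.3 to 118 TPM and Egfl7 at 10.5 to 17.3 TPM. The 6 leukocyte markers in the files together came to 10.5, 16.2, 26.4 and 17.4 TPM in DMSO 3, 5, 15 and 20, and to 8.95, 7.08, 0.0112 and 3.11 TPM in DOX 9, 12, 19 and 21. The lowest DMSO sum was thus 10.5 and the highest DOX sum 8.95 TPM, while the groups overlapped for each of the 6 genes taken singly. This was 1 of 8 marker sums, chosen after its values were seen, and it was not tested. Only 3 of the 6 genes received an adjusted p, none of them called, and C1qa and Emr1 had a value in DMSO 15 alone. Csf1r and Emr1 stayed under 1 TPM, and the part of this difference in any of the 9 genes was not tested. Of the 10 stromal markers Col1a1, Col1a2, Col3a1, Pdgfrb and Acta2 were at 54.2 TPM or more in every library. Others were nearly absent from some, with Dcn at 0 in DMSO 20, Lum at 0.0249 TPM in DMSO 20 and 0 in DOX 19, and Pdgfra at 0.237 TPM in DOX 19. In all, 0 genes of any marker list were called. The libraries thus hold tip, trunk, other epithelial and stromal transcripts together and none of the 9 genes can be assigned to 1 of these.

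Around the 9 genes, 97 further genes of the pathway in 8 lists were examined, and 94 of them received an adjusted p. DESeq2 called 0 of them, as did edgeR, against 0.147% of all genes by DESeq2. At an unadjusted p under 0.05 there were 5 of 94 (4 higher and 1 lower), a share of 5.32% beside 4.67% of all genes. Their median log2 fold change was -0.02, beside -0.07 over all genes tested.

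Among the other ligands and co-receptors of the GDNF family, Gfra3 and Gfral had no count in any library. The most abundant of this list were Gdf15 at 174 TPM, the heparan sulfate proteoglycan Sdc3 at 38.9 TPM, the adhesion molecule Ncam1 at 34.7 TPM and neurturin (Nrtn), the ligand of GFRα2, at 14.1 TPM, as means of 8 libraries. None of the 8 genes tested in the list was called, with the lowest adjusted p at 0.977 for Gfra2 (log2 fold change 1.39 ± 0.743). Among 15 adaptors and effectors of RET, Shc1 at 155 TPM, Grb10 at 83.1 TPM, Grb2 at 62.4 TPM and Grb7 at 29.3 TPM led. Ptpn11, the phosphatase SHP2 that RET signalling uses to reach Ras, had 5027, 4797, 6132 and 7091 normalised counts in DMSO 3, 5, 15 and 20, and 7939, 7607, 8734 and 6543 in DOX 9, 12, 19 and 21. Only DOX 21 was below the highest DMSO library (log2 fold change 0.42 ± 0.200 SE, adjusted p = 0.876 by DESeq2).

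Of the 13 genes of the Ras-ERK cascade 0 were called, and 7 were higher and 6 lower with DOX, from Rasa1 (log2 fold change 0.56 ± 0.453 SE) to Nf1 (-0.46 ± 0.607). Among the abundant ones were the kinases Map2k1 at 110.1 TPM and Map2k2 at 109 TPM, and the GTPase activator Rasa1. The lowest adjusted p of the list was 0.999.

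Of 10 other feedback genes of ERK, Errfi1 (an inhibitor of EGFR) was at 276 TPM, the nuclear ERK phosphatase Dusp5 at 189 TPM, Spred1 at 96.9 TPM and Dusp4 at 54.7 TPM, while Spred2 was at 15.0 TPM. Dusp5 had the pattern of Gfra1 and Spry4, with 2900.4, 2487, 3907 and 10761 normalised counts in DMSO 3, 5, 15 and 20, and 5302, 5782, 7736 and 6663 in DOX 9, 12, 19 and 21. DMSO 20 was highest of all and the other 3 DMSO libraries were below every DOX library. Its log2 fold change was 0.35 ± 0.501 (SE, adjusted p = 0.999 by DESeq2) with all libraries. Without DMSO 20 it was 1.04 ± 0.263 with an adjusted p of 0.0348 by DESeq2, a call, and an adjusted p of 0.953 by edgeR. In that set 0.314% of genes were called and 6.76% had groups that did not overlap. Without DMSO 20 and DOX 19 it was 0.95 ± 0.286 (adjusted p = 0.142).

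Etv1, the third member of the ETS subfamily of Etv4 and Etv5, came closest to a call with all libraries. Its normalised counts were 3745, 3121, 3467 and 2963 in DMSO 3, 5, 15 and 20, and 4833, 5419.7, 5733 and 7939.9 in DOX 9, 12, 19 and 21. All 4 DOX libraries were above all 4 DMSO libraries, as in 2.71% of genes. Its log2 fold change was 0.85 ± 0.217 (SE), a fold of 1.80, with adjusted p = 0.0579 by DESeq2, which missed the threshold. edgeR gave adjusted p = 0.999, and the exact permutation test gave p = 0.0286, the smallest that it can give. Across the 19 alternatives the log2 fold change stayed between 0.68 and 0.94 and the adjusted p ran from 0.0092 (with sex in the model) to 0.9995. It was a call in 4 of these, all by DESeq2.

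Others in the list of immediate ERK targets and ETS targets were Ier3 at 325 TPM, Junb at 255 TPM, Egr1 at 209 TPM and Ier2 at 164 TPM, none of them called. Fos, an immediate early gene, had 923, 661, 2358 and 1621 normalised counts in DMSO 3, 5, 15 and 20, and 659.6, 611, 936 and 570.1 in DOX 9, 12, 19 and 21 (log2 fold change -1.002 ± 0.450 SE, adjusted p = 0.830 by DESeq2). The groups overlapped.

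**Figure D4:**
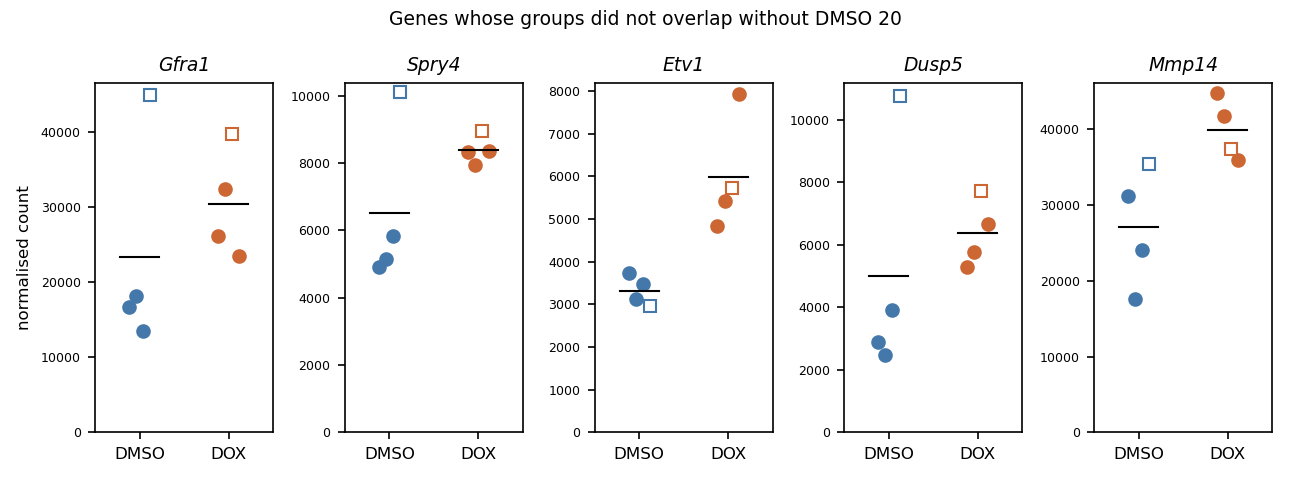
Normalised counts (linear axis from 0) of Gfra1, Spry4, Etv1, Dusp5 and Mmp14 in the 4 DMSO and 4 DOX libraries, with group means as lines and DMSO 20 and DOX 19 as open squares. The groups of Etv1 and Mmp14 do not overlap, and those of Gfra1, Spry4 and Dusp5 overlap through DMSO 20.

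Of 10 tip targets of RET, Mmp14, a membrane metalloproteinase, was the most abundant at 492 TPM, with Lgals3 at 120 TPM and Sox9 at 46.9 TPM. Mmp14 had 31183, 17626, 24100.1 and 35371 normalised counts in DMSO 3, 5, 15 and 20, and 44699, 41709.6, 37378 and 35841 in DOX 9, 12, 19 and 21. The groups did not overlap, but DOX 21 and DMSO 20 nearly met (log2 fold change 0.56 ± 0.263 SE, adjusted p = 0.873 by DESeq2). Wnt11 had 3138, 2547, 2305 and 5060.3 normalised counts in DMSO 3, 5, 15 and 20, and 1823, 4456, 7713 and 2379 in DOX 9, 12, 19 and 21. Its highest values were in DOX 19 and DMSO 20, and its log2 fold change was 0.33 ± 0.516 (adjusted p = 0.999), and 0.13 without those libraries.

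The 20 regulators that act upstream of Gdnf and Ret were led by Ctnnb1 (beta-catenin) at 529 TPM, Pax8 at 99.8 TPM, the proteoglycan Gpc3 at 70.7 TPM and Bmp4 at 50.01 TPM. Pax2 was at 2.59 TPM and Gata3, which maintains Ret expression in the duct, at 30.3 TPM with a log2 fold change of -0.27 ± 0.505. Pax8, which also drives the Cre system, had a log2 fold change of -0.0023 ± 0.427 (adjusted p = 0.999). Grem1, the BMP antagonist that permits budding, was at 323, 393, 1529 and 325 normalised counts in DMSO 3, 5, 15 and 20, and at 4843, 1704, 679 and 1242 in DOX 9, 12, 19 and 21. DMSO 15 lay among the DOX libraries, and the log2 fold change was 1.72 ± 0.750 (SE, adjusted p = 0.827 by DESeq2). Without DMSO 15 it was 2.61 (adjusted p = 0.0249 by DESeq2), a call in a set of libraries where 0.575% of 13039 genes were called.

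By mean TPM over the 8 libraries the receptors for the other growth factors of the medium were all above Ret, apart from Fgfr3 at 1.55 TPM and Fgfr4 at 3.39 TPM. Fgfr1 was at 106 TPM, Fgfr2 at 25.2 TPM, Egfr at 23.6 TPM, Erbb2 at 23.3 TPM and Met, the receptor for HGF, at 15.2 TPM. The list had 1 gene higher and 9 lower with DOX and a median log2 fold change of -0.36, but 0 of 10 were called and the lowest adjusted p was 0.999. Fgfr1 was the exception in direction (log2 fold change 0.57 ± 0.376). Which of these receptors set the levels of Etv4, Etv5, the Sprouty genes or Dusp6 was not tested by this design, since all cultures received the same factors.

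**Figure D5:**
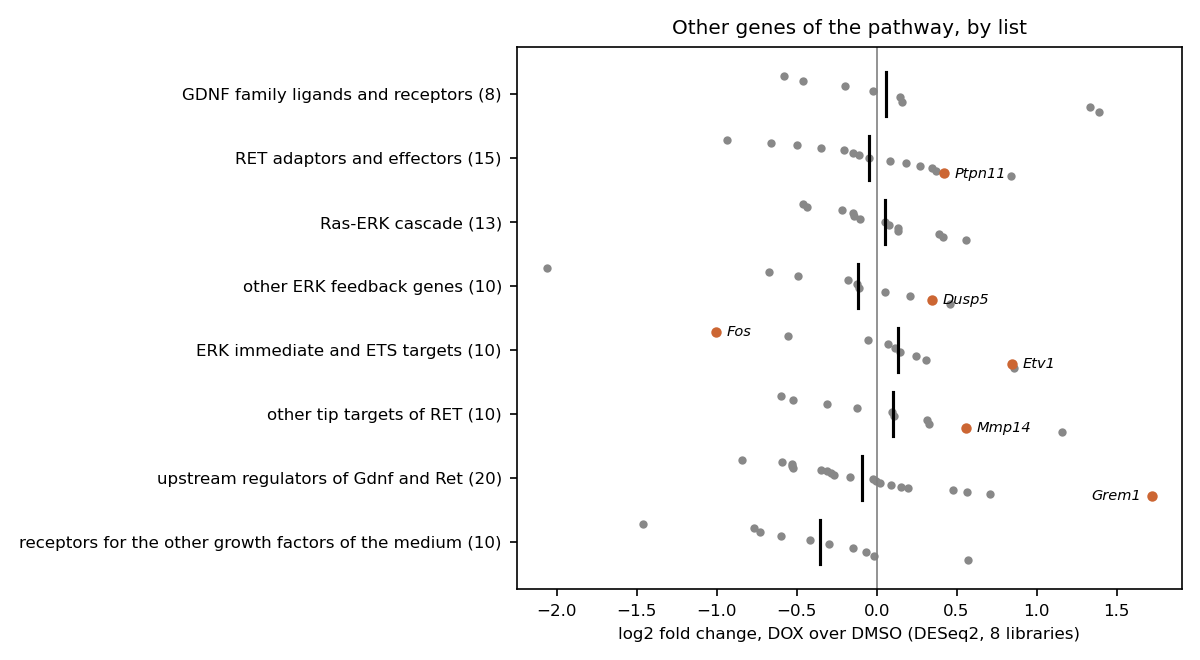
Log2 fold change of DOX over DMSO (DESeq2, 8 libraries) for the other pathway genes, 1 point per gene, by list, with the number of genes plotted in parentheses and the list's median as a bar. Genes named for their test are coloured, the medians lie between -0.36 and 0.13, and no gene was called.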

How the data were processed

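RNA from 8 tubuloid cultures was made into libraries with the SMART-Seq v4 kit after poly-A selection. Per the labels' processing notes the authors used STAR, featureCounts and DESeq2 with mm10 (GRCm38), versions not given in the sources used here, and deposited a table per library with a count, FPKM and TPM for each RefSeq transcript. The deposited counts are whole numbers and are not normalised, and the deposited TPM sum to the same total in every library. The deposited FPKM of 1 transcript per gene, rescaled to a common total in each library, gave the recomputed TPM. Isoforms share reads, so counts added by gene symbol overstate reads for genes with several transcripts, and TPM were recomputed with 1 transcript per gene, the one with the highest mean count. For Gfra1 this was a non-coding RefSeq transcript. It led a coding one by 7446 to 7445 counts in DOX 21 and equalled it elsewhere, and their deposited TPM in DOX 21 were 39.5 and 40.2.

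All genes were fitted with DESeq2 1.42.0 (R 4.3.3, median-of-ratios size factors, Wald test, independent filtering at 0.1, DOX against DMSO, no covariate). Genes whose Benjamini-Hochberg adjusted p did not exceed 0.05 and that differed by 1.5-fold or more were called. edgeR 4.0.16 (quasi-likelihood) and limma 3.58.1 (voom) were alternatives. Log2 values for correlations used a pseudocount of 1. Exact tests of single genes compared mean normalised counts without a log, and those of ratios compared log2 ratios without a pseudocount. Exact permutation tests ran over 70 assignments of the libraries, 2-sided, and correlations over all 40320 pairings with SciPy 1.17.1. The upper limit of 3 counts per transcript given for a count of 0 covers counting error only.

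The members and gene lists were chosen with earlier results of these data known. Pathway genes were named by a fixed rule, the 4 most abundant of each list and those called, with a set of listed genes, while the other markers named and Etv1, Dusp5, Mmp14, Grem1, Fos and Ptpn11 were added after their values were seen. Alternatives were another test, scaling, filter, threshold, covariate, counting unit or set of libraries. Libraries were sequenced on flow cell lanes whose assignment is not known here, so lane was not modelled. No pair among the 28 agreed within sampling noise. A few listed genes are not reported here.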

Additional observations from a re-analysis of the deposited data

How the results depend on the processing

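No paired analysis was made, because the labels give no pairing of DMSO with DOX libraries and the library numbers do not match. Over 170 alternative values of the members' log2 fold changes, 155 kept direction and call, 14 reversed and 1, Spry4 without DMSO 20, became a call. The number of members called was 0 to 1 when single libraries were left out and 0 otherwise. Etv4 (0.03 with all libraries) reversed to -0.060 without DMSO 20 and DOX 19, to -0.082 by edgeR without them and to -0.12 by edgeR without DMSO 20, and ranged from -0.12 to 0.16 when single libraries were left out. Dusp6 (-0.04) reversed to 0.023 by limma-voom, 0.17 without DMSO 20 and DOX 19, 0.15 by edgeR without them and 0.21 by edgeR without DMSO 20, and ranged from -0.21 to 0.21. Both intervals cover 0 throughout, and the cause was not tested. The number of genes called, 25 in all, was 0 by edgeR and by limma-voom, 0 by edgeR without DMSO 20 or without DMSO 20 and DOX 19, 16 with at least 10 counts in every library, 48 with the Cook distance filter off, 43 with sex as a covariate, 51 without DMSO 20 and DOX 19 and 43 at an adjusted p of at most 0.1 with no fold minimum. It was 14 (without DMSO 3) to 75 (without DMSO 15) when single libraries were left out. Of the other pathway genes 0 were called, 1 with the Cook distance filter off and 1 with sex as a covariate, Etv1 each time, and 0 to 2 without single libraries. The edgeR alternatives on fewer libraries and those of Etv1 were added after seeing the data. Gdnf had the lowest counts of the members, with none in DOX 19, a library whose total count was above those of DMSO 5 and DMSO 20.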

Other observations

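The genes whose levels followed those of the pathway most closely over the 8 libraries are given as a description, from 11277 genes with a mean normalised count of at least 100 and at least 10 counts in every library. For Ret they were Odf2l (r = 0.949), Map4k3 (0.942) and Efcab7 (0.939). For Gdnf they were Ung (0.973), Chn1os3 (0.972) and Smchd1 (0.972), and 105 genes exceeded 0.9, while without DMSO 20 and DOX 19 the r of Chn1os3 was 0.735. For Etv4 they were Pfas (0.965), Mtss1l (0.932) and Mms19 (0.916), and for Dusp6 Rhog (0.983), Cflar (0.975) and Gid4 (0.964).

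Without DMSO 15, where DESeq2 called 75 genes (0.575% of those tested) against 25 with all libraries, Fosl1, an AP-1 subunit, and Grem1 were among the calls. No edgeR fit was made on these 7 libraries. Fosl1 had 569 normalised counts in DMSO 3, 233 in DMSO 5, 2131 in DMSO 15 and 305 in DMSO 20, and 1924, 1419, 1652 and 871 in DOX 9, 12, 19 and 21. Its log2 fold change without DMSO 15 was 1.99 (adjusted p = 0.00693 by DESeq2), against 0.86 (adjusted p = 0.999) with all libraries. That of Grem1 was 2.61 (adjusted p = 0.0249) against 1.72. DMSO 15 was also the library with the highest stromal marker sum, and the part of this in either result was not tested.

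The pair of Ret transcripts had equal counts in DMSO 20 (732 each) and in DOX 19 (87 each), the libraries with fewest genes detected, and differed by 11.002% to 16.3% in the other 6.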
